A study of Homo sapiens with 18 samples.

Results

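Panc327 cells treated with THZ1 were compared with Panc327 cells given the vehicle DMSO, in 3 libraries of each kind out of 18 in the series. Panc327 is an established human pancreatic ductal adenocarcinoma line. The THZ1 group received 100 nM of the compound for 6 h, and the DMSO group received vehicle for the same time, and the labels name no engineered allele in either. The libraries were chosen by the labelled line and treatment alone, and every gene symbol in their count files was considered: 26485 symbols, of which 14011 had enough counts to be tested. The remaining 12 libraries, from the lines BxPC3 and SUIT2 with the same treatments, entered the fit and serve as a comparison at the end. Whether replicates came from separate cultures is not given, and the spread behind each p-value is that among these libraries and may be technical.

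THZ1 binds covalently to CDK7 and, more weakly, to the related kinases CDK12 and CDK13. CDK7, as part of the initiation factor TFIIH, phosphorylates the tail of RNA polymerase II soon after transcription begins, while CDK12 and CDK13 act on the polymerase during elongation. When transcription is blocked, messages with short lifetimes are lost first and stable ones make up a growing share of the remaining poly(A) RNA. Levels here are CPM, counts brought to a common library total with TMM composition scaling, which sets the typical gene to no change; a rise or fall is therefore relative to the other genes, and a change in total RNA per cell was not measured.

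The THZ1 libraries held 5626146 to 6721403 gene counts and the DMSO libraries 8348987 to 8631273. Records aligned to several places took up 51.7% to 54.9% of the THZ1 files and 13.5% to 13.8% of the DMSO files (exact 2-sided permutation p = 0.1, the smallest that 3 against 3 allows), and the part of this difference in the results below was not tested. The line's label was checked against cell type markers. All 8 epithelial markers were detected, with summed levels of 6828 to 7232 CPM in THZ1 libraries and 4985 to 5122 CPM in DMSO libraries, and 6 of them were higher with THZ1 and 2 lower. The epithelial adhesion gene EPCAM had 859, 857 and 859 CPM with THZ1, against 453, 461 and 474 CPM with DMSO. The sums for other cell types cover only the markers with enough counts to be tested. The 2 tested of 8 acinar markers summed to at most 1.03 CPM in a THZ1 library and 1.31 CPM in a DMSO library. PRSS1 and PNLIP had 0 counts in all 6 libraries. The hormones INS, GCG, SST and PPY also had 0 counts in all 6 libraries. The 3 tested of 7 fibroblast markers summed to 73.0 to 89.6 CPM with THZ1 and 56.0 to 57.7 CPM with DMSO. Most of this came from COL1A1, while DCN and POSTN had 0 counts. Of leukocyte markers PTPRC had 1 count over the THZ1 libraries and 0 over the DMSO libraries. The 3 of 6 that were tested summed to 24.9 to 30 CPM with THZ1 and 12.2 to 14.4 CPM with DMSO. Most of this came from the lysosomal gene CD68. The 3 tested of 5 endothelial markers summed to 16.6 to 18.6 CPM with THZ1 and 12.2 to 13.6 CPM with DMSO, nearly all from VWF.

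After 6 h of THZ1 most genes had changed, and large changes were mainly falls. A gene was called at an adjusted p under 0.05 (edgeR quasi-likelihood test, Benjamini-Hochberg over all genes tested). By this rule 4992 genes (35.6%) were higher and 5291 (37.8%) lower, which together is 73.4% of the genes tested. Counts in the gene lists below are to be read against these shares. Calls of at least 2-fold numbered 1077 upwards (7.69%) and 2662 downwards (19%). Calls of at least 4-fold numbered 155 upwards and 764 downwards, and among the 9739 genes with a mean of 10 CPM or more in a Panc327 group they numbered 28 and 436. The 3 THZ1 and 3 DMSO libraries did not overlap for 10501 genes (74.9%). With libraries scaled by their size alone, the median of all genes moved to -0.34 on the log2 scale, in place of -0.01, and 31.0% of the calls were higher in place of 48.5%. The medians of 10 gene lists turned from above to below 0 under that scaling, and list counts that it tips are given with the list.

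**Figure D1:**
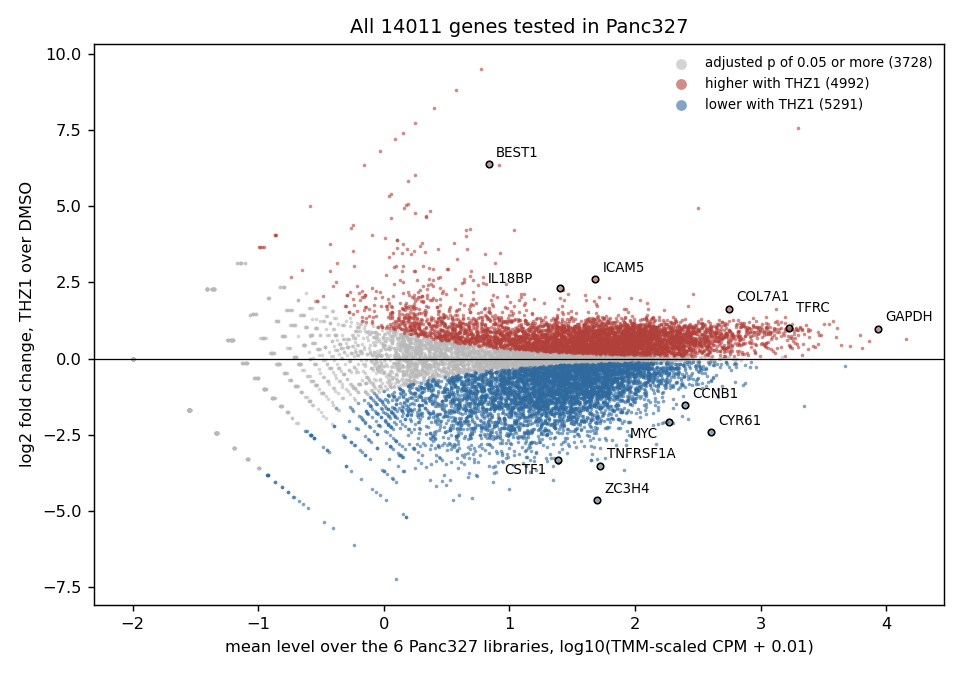
Each point is 1 of 14011 genes tested, with its mean level over the 6 Panc327 libraries (log10 of CPM plus 0.01) on the horizontal axis and the log2 fold change of THZ1 over DMSO on the vertical axis. The 5291 genes lower with THZ1 spread further from 0 than the 4992 higher ones at 10 CPM and above, while the fitted fold changes of genes with 0 counts in a group, at the left, are not bounds.

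Among the largest rises of genes of at least 10 CPM was that of RNA45S5, the ribosomal RNA precursor, which had 4077, 3827 and 3835 CPM with THZ1, against 23.7, 20.9 and 17.1 CPM with DMSO (log2 fold change 7.57, SE 0.06). RNA28S5, 28S ribosomal RNA, rose by 4.95. Both have several genomic copies, and they were higher in the libraries with the larger share of records aligned to several places; the part of either in the other results was not tested. Other large rises included genes of cell surface and secreted products. ICAM5, a cell adhesion molecule of the immunoglobulin family on chromosome 19 from 10289981 to 10296778, had 77.7, 82.1 and 88.0 CPM with THZ1, against 14.0, 13.3 and 13.3 CPM with DMSO. Every THZ1 library lay above every DMSO library, at a log2 fold change of 2.61 (SE 0.09, edgeR adjusted p = 4.39e-45). IL18BP, a secreted inhibitor of the cytokine interleukin-18 on chromosome 11 from 71998541 to 72005715, had 43.6, 38.5 and 44.4 CPM with THZ1, against 9.09, 7.61 and 8.95 CPM with DMSO. Its groups did not overlap either (log2 fold change 2.30, SE 0.12), although its exons overlap those of NUMA1 on the other strand. The transcription factor gene FOS had 13.4, 17.4 and 17.2 CPM with THZ1, against 3.55, 2.79 and 2.40 CPM with DMSO. The adhesion receptor gene ADGRA2 (2.48), the complexin gene CPLX3 (2.44) and ADM5 (2.69) averaged at least 10 CPM with THZ1 and less with DMSO, and ADGRA2 overlaps BRF2 on the other strand. The readthrough transcript P2RX5-TAX1BP3 averaged 13.7 ± 1.0 CPM with THZ1 and 1.53 ± 0.244 CPM with DMSO (SD, n = 3), and its reads cannot be told from those of its 2 parent genes where they share exons.

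Among the largest falls were a Wnt antagonist, a cytokine receptor and several transcription factors. DKK1, which encodes a secreted inhibitor of Wnt signalling and lies on chromosome 10 from 52314296 to 52318042, had 10.1, 11.2 and 14.8 CPM with THZ1, against 154, 150 and 153 CPM with DMSO. No THZ1 library came near the DMSO range, and the log2 fold change was -3.67 (SE 0.09, edgeR adjusted p = 1.85e-56). TNFRSF1A, the main receptor for tumour necrosis factor, on chromosome 12 from 6328757 to 6342114, had 8.85, 6.21 and 10.3 CPM with THZ1, against 102, 90.6 and 97.3 CPM with DMSO. It fell by 3.51 on the log2 scale (SE 0.10). The epithelial transcription factor GRHL3 (-3.76), the homeobox gene MEIS1 (-3.53), KRCC1 (-3.74), the kinase adaptor gene MOB3A (-3.55), SDR42E1 (-3.65) and the zinc finger genes ZNF518B (-3.52) and ZFP3 (-3.51) fell by similar amounts.

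Abundant messages moved in both directions. The 5 most abundant genes that rose were the elongation factor EEF1A1 (0.63), GAPDH (0.98), the actins ACTB (0.59) and ACTG1 (0.35), and TGFBI, an extracellular matrix protein (0.79), as log2 fold changes. The 5 most abundant that fell were the amino acid transporter SLC7A5 (-0.26), the chaperone HSPA8 (-1.55), the tubulin TUBB4B (-0.27), the growth peptide PTHLH (-0.81) and the proliferation marker MKI67 (-0.88). HSPA8, the constitutive cytosolic HSP70, had 1146, 1143 and 1096 CPM with THZ1, against 3100, 3462 and 3343 CPM with DMSO. With library size scaling ACTG1 (0.02) no longer passed the test.

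Promoter sequences of 8 genes are shown as examples, 4 that rose and carry the core promoter element TATAAA and 4 with some of the largest falls. Each runs 5′ to 3′ from 60 bases before the RefSeq transcription start through its first 20 bases on GRCh38.p14. TATAAA is in capitals where all of it lies between 40 and 15 bases before the transcription start on the strand of the gene. The first 4 were chosen after their values were seen, as genes that rose and carry TATAAA. The last 4 fell and hold no match there. Because of this choice the examples cannot relate the element to the direction of change, which was not tested.
FOS: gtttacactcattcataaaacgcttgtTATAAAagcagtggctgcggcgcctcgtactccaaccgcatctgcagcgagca
HSPA1B: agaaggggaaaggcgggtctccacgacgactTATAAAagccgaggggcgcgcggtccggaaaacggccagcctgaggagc
HSPA1A: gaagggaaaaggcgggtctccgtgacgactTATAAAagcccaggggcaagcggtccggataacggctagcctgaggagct
JUNB: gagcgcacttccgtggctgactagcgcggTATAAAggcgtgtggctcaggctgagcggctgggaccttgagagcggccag
ZC3H4: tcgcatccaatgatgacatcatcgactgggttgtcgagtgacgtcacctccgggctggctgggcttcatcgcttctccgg
HOMEZ: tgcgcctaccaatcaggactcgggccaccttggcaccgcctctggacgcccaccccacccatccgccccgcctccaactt
ZBED5: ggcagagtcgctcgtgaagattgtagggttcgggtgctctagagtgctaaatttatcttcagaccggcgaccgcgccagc
ZNF691: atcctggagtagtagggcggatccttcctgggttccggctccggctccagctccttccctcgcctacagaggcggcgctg
The windows lie at chr14:75278768-75278847 (plus strand), chr6:31827678-31827757 (plus), chr6:31815483-31815562 (plus), chr19:12791426-12791505 (plus), chr19:47113757-47113836 (minus), chr14:23286113-23286192 (minus), chr11:10858034-10858113 (minus) and chr1:42846553-42846632 (plus), in the order printed.

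The heat shock gene HSPA1B averaged 174 ± 6.38 CPM with THZ1 and 45.9 ± 6.47 CPM with DMSO, and its near-identical neighbour HSPA1A 193 ± 12.8 and 62.4 ± 2.45 CPM (SD, n = 3). Reads of the pair cannot be divided between them with certainty. JUNB, an AP-1 transcription factor, had 245, 241 and 280 CPM with THZ1, against 91.8, 80.3 and 82.0 CPM with DMSO. Of all 35116 RefSeq promoter windows in the table used, 2.30% held TATAAA at that position. A comparison of promoter composition between genes that rose and genes that fell is void, because only 71.7% of the genes called at least 2-fold higher (772 of 1077) had a window, where at least 80% was required.

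Of the kinases that THZ1 binds, all 3 were lower at the message level. CDK7, on chromosome 5 from 69234795 to 69277430, had 11.8, 14.9 and 10.1 CPM with THZ1, against 39.4, 39.6 and 41.0 CPM with DMSO (log2 fold change -1.71, SE 0.11, edgeR adjusted p = 3.03e-26). CDK12 had 62.6, 64.8 and 59.4 CPM with THZ1, against 136, 135 and 140 CPM with DMSO. The 6 libraries separated by treatment for both kinases. CDK13 fell by 0.34 on the log2 scale. The CDK7 assembly factor MNAT1 rose by 0.38, a call lost at 0.05 with library size scaling, while its cyclin CCNH (0.10) and the CDK12 cyclin CCNK (0.00) did not pass the test.

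Factors that release RNA polymerase II into elongation moved unequally. Of 10 genes of the elongation kinase P-TEFb, its regulators and BET proteins, 2 rose and 5 fell. MEPCE, which caps the inhibitory 7SK RNA, averaged 11.9 ± 2.71 CPM with THZ1 and 53.6 ± 2.75 CPM with DMSO (SD, n = 3), and its partner LARP7 fell by 0.44. The P-TEFb kinase CDK9 did not pass the test (0.07), and its cyclin CCNT1 fell by 0.42. BRD2 (-0.29) and BRD3 (-1.02), readers of acetylated histones, fell. Of 9 super elongation complex genes 3 rose and 4 fell, led by EAF1 (0.98), ELL (0.70) and EAF2 (-1.32). With library size scaling 2 rose and 6 fell, and the median turned to -0.26 in place of 0.07. Of 18 pausing and elongation factors 8 rose and 7 fell: IWS1, an elongation factor, averaged 12.2 ± 2.04 CPM with THZ1 and 62.3 ± 1.19 CPM with DMSO, LEO1 of the PAF complex fell (-1.59), and the histone chaperone SSRP1 (0.69) and SUPT5H (0.62) rose. The counts for this list were 4 higher and 12 lower with library size scaling.

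Genes listed under RNA polymerase II mostly rose, and those listed under RNA polymerases I and III mostly fell. Among the 12 of RNA polymerase II the test called 9 higher and 2 lower, at a median log2 fold change of 0.75. POLR2J (1.08), POLR2L (0.98) and POLR2F (0.96) rose most, and POLR2D fell (-0.93). POLR2L, POLR2F, POLR2E (0.76), POLR2K (0.72) and POLR2H (-0.34) also belong to RNA polymerases I and III, so these lists do not fully separate the enzymes. Of 19 other subunit genes of RNA polymerases I and III, which make ribosomal and transfer RNA, 1 rose and 14 fell, with a median of -1.33. POLR3A, the largest subunit of RNA polymerase III, had 14.2, 16.6 and 16.2 CPM with THZ1, against 76.8, 74.3 and 69.5 CPM with DMSO. Its partner in the catalytic centre, POLR3B, had 5.55, 6.83 and 5.92 CPM with THZ1, against 34.3, 35.8 and 30.3 CPM with DMSO. Both genes were several-fold lower in every THZ1 library. POLR3D (-2.34) and POLR1C (-1.91), a subunit shared by RNA polymerases I and III, fell as well. POLR1D, the other of the 19 genes shared in that way, rose (0.38), a call lost with library size scaling.

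Initiation factors held members of both directions. Of 24 genes of TFIID and other general factors 9 rose and 13 fell. GTF2E1, the large subunit of TFIIE, had 3.47, 3.10 and 3.95 CPM with THZ1, against 27.6, 31.4 and 28.8 CPM with DMSO, a fall of 3.05 on the log2 scale (SE 0.16). The TATA-binding protein TBP (-1.79) and the TFIID subunits TAF5 (-2.25) and TAF8 (-1.47) also fell, and TAF10 rose (1.05). Of 6 tested TFIIH core genes 3 rose and 2 fell, with GTF2H5 at 0.64 and GTF2H1 at -0.71. With library size scaling 1 TFIIH core gene rose and 2 fell, and the median of 0.20 turned to -0.12. Mediator, which links activators to the polymerase, had 9 genes higher and 23 lower of 33, with a median of -0.55. MED7 (-3.15), MED9 (-2.12), MED17 (-2.05) and MED1 (-1.64) fell most, while MED12L (1.86) and MED15 (1.03) rose.

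Genes that end transcription and process RNA 3′ ends fell in larger numbers than they rose. Of 26 cleavage, polyadenylation and termination genes 6 rose and 19 fell, with a median of -0.68. CSTF1, a subunit of the cleavage stimulation factor on chromosome 20 from 56392371 to 56406369, had 4.86, 3.93 and 4.34 CPM with THZ1, against 46.0, 41.9 and 44.6 CPM with DMSO. It was about 10-fold lower in THZ1 libraries, with a log2 fold change of -3.32 (SE 0.13, edgeR adjusted p = 1.41e-40). CSTF3 of the same factor had 10.2, 7.24 and 7.50 CPM with THZ1, against 55.9, 56.4 and 56.8 CPM with DMSO. PPP1R10, the PNUTS subunit of the phosphatase that acts in termination, averaged 7.93 ± 1.52 CPM with THZ1 and 80.7 ± 3.43 CPM with DMSO (SD, n = 3). The 2 subunits of cleavage factor I behaved otherwise: NUDT21 had 274, 294 and 284 CPM with THZ1, against 152, 146 and 142 CPM with DMSO, and CPSF6 rose by 0.88. Integrator, which cuts short and small nuclear RNAs, had 2 genes higher and 10 lower of 14. Its subunit INTS5, on chromosome 11 from 62646848 to 62653302, had 3.82, 4.97 and 4.14 CPM with THZ1, against 38.6, 39.4 and 45.4 CPM with DMSO, and INTS1 (0.57) and CPSF3L (0.47) rose.

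**Figure D2:**
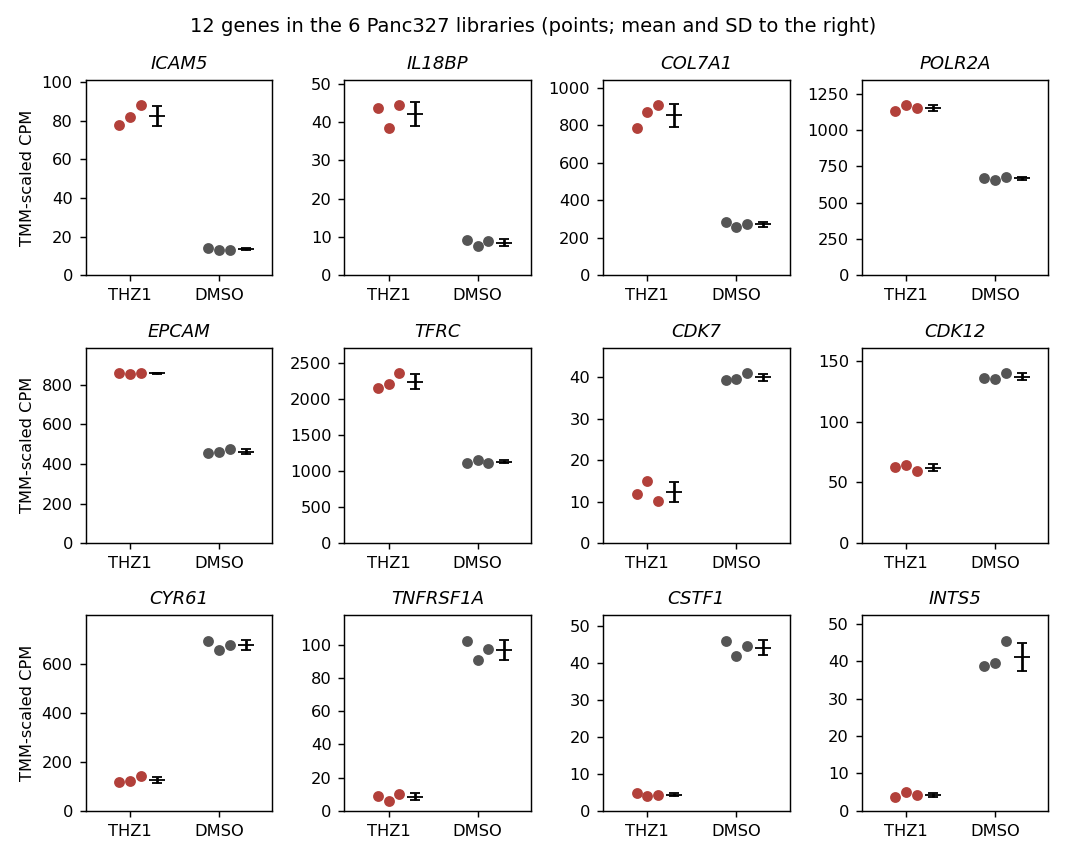
Each panel shows 1 gene, with TMM-scaled CPM on a linear axis from 0, the 3 THZ1 libraries on the left, the 3 DMSO libraries on the right, and the mean with its SD beside each group. In all 12 panels the 2 groups are apart: ICAM5, IL18BP, COL7A1, POLR2A, EPCAM and TFRC lie higher with THZ1, and CDK7, CDK12, CYR61, TNFRSF1A, CSTF1 and INTS5 lower.

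SR protein, exosome, decay and nuclear pore genes mostly fell, and hnRNP genes rose more often than they fell. Of 23 hnRNP genes, which coat nascent RNA, 16 rose and 5 fell, with HNRNPC at 0.70, HNRNPA2B1 at 0.67 and HNRNPDL at -0.97. With library size scaling 10 hnRNP genes rose and 7 fell, at a median of 0.062. Of 19 genes of SR proteins and their CLK kinases 5 rose and 12 fell. SRSF3 had 118, 115 and 101 CPM with THZ1, against 309, 320 and 309 CPM with DMSO, and CLK4 (-1.64) and CLK2 (-1.47) fell too. The splicing activator TRA2A had 140, 142 and 155 CPM with THZ1, against 67.6, 75.1 and 64.9 CPM with DMSO, so that the list held members with opposite changes. Of 17 genes of the RNA exosome and its cofactors, which degrade RNA from the 3′ end, 3 rose and 14 fell (median -0.91), led by RBM7 (-2.53), EXOSC9 (-2.18) and EXOSC3 (-1.96). Of 28 deadenylation, decapping and decay genes 5 rose and 16 fell, with CNOT2 at -1.40, DDX6 at -1.07 and CNOT6L at 0.76. Of 29 nuclear pore genes 5 rose and 23 fell (median -0.51). The central channel gene NUP62 had 57.1, 60.6 and 54.5 CPM with THZ1, against 191, 184 and 176 CPM with DMSO, whereas the membrane nucleoporin NUP210 averaged 2184 CPM with THZ1 and 1359 CPM with DMSO.

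Collagen, laminin, integrin, S100 and keratin genes mostly rose. Of 34 collagen, laminin and integrin genes 30 rose and 1, ITGB8, fell (-0.38), with a median log2 fold change of 0.88 against -0.01 over all genes tested. COL7A1, the collagen of anchoring fibrils, lies on chromosome 3 from 48564073 to 48595267 and had 786, 868 and 906 CPM with THZ1, against 287, 260 and 274 CPM with DMSO (log2 fold change 1.64, SE 0.05, edgeR adjusted p = 7.44e-26). The epithelial integrin ITGB6 had 288, 293 and 311 CPM with THZ1, against 127, 128 and 120 CPM with DMSO. Of 13 tested genes of S100 calcium-binding proteins and their partners 10 rose and 1 fell. S100A6 had 1242, 1295 and 1169 CPM with THZ1, against 489, 497 and 497 CPM with DMSO, and S100A10 (1.22) and S100A11 (1.11) rose similarly. Of 17 tested keratins 14 rose and 3 fell, with KRT8 at 0.77, KRT5 at 0.73 (not called by DESeq2) and KRT80 at -0.81. KRT19, a ductal keratin, went the other way by a small amount, at 725, 695 and 642 CPM with THZ1, against 821, 792 and 795 CPM with DMSO (log2 fold change -0.22, not called by DESeq2).

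Antigen presentation, lysosomal and proteasomal genes also rose more often than they fell. Of 16 genes of MHC class I and peptide loading 15 rose and 0 fell (median 0.93). Beta-2 microglobulin, B2M, had 429, 428 and 463 CPM with THZ1, against 193, 194 and 199 CPM with DMSO, and HLA-G (1.44) and PDIA3 (1.03), a chaperone of peptide loading, rose. The HLA genes belong to a family with similar sequences, so their shares are uncertain. Of 45 lysosome and autophagy genes 29 rose and 5 fell. The cholesterol carrier NPC2 (1.21), the saposin precursor PSAP (1.13), and the autophagosome proteins MAP1LC3B (1.25) and GABARAPL1 (1.24) rose, and TFEB, a transcription factor of lysosomal genes, fell to 1.36 ± 0.709 CPM with THZ1, against 8.29 ± 0.466 CPM with DMSO (SD, n = 3). Of 46 proteasome genes 36 rose and 7 fell. The activator subunit PSME1 had 301, 312 and 290 CPM with THZ1, against 140, 134 and 142 CPM with DMSO, and the assembly chaperone PSMG2 (-1.07) and PSMD5 (-0.84) fell.

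Iron and redox genes held changes of both signs; of 12 tested iron genes 4 rose and 5 fell. The transferrin receptor TFRC, which imports iron, had 2153, 2207 and 2361 CPM with THZ1, against 1118, 1153 and 1114 CPM with DMSO. The ferritin chains that store iron, FTL and FTH1, averaged 1588 ± 104 and 2161 ± 96.5 CPM with THZ1, against 614 ± 26 and 964 ± 31.0 CPM with DMSO (SD, n = 3), so that import and storage genes were both higher. FBXL5, the ubiquitin ligase subunit that senses iron, fell by 1.79 and the exporter SLC40A1 by 1.05. Of 25 NRF2 and antioxidant genes 15 rose and 7 fell (median 0.51). Thioredoxin, TXN, had 670, 641 and 669 CPM with THZ1, against 280, 280 and 266 CPM with DMSO, while KEAP1, the repressor of NRF2, had 27.9, 25.7 and 25.5 CPM with THZ1, against 96.0, 95.3 and 94.5 CPM with DMSO. OSGIN1 (-3.15), HMOX1 (-1.97) and GCLC (-1.67), all known NRF2 targets, fell.

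Translation genes divided by class. Of 46 tested translation initiation and elongation factors 25 rose and 14 fell (median 0.16), with EIF4EBP1 at 1.13, EIF3K at 0.95, EEF1G at 0.94, EIF4E at -1.0 and EIF1B at -1.86. Of 20 cytosolic aminoacyl-tRNA synthetases 11 rose and 5 fell (median 0.18), with QARS at 0.66 and FARSA at -1.79. With library size scaling these medians turned to -0.16 and -0.15, and the counts to 14 higher and 24 lower and to 3 higher and 12 lower. Of 17 mitochondrial synthetases 4 rose and 8 fell; IARS2 rose (0.78), and MARS2, a gene of 1 exon, had 7.29, 7.86 and 11.2 CPM with THZ1, against 44.2, 43.1 and 46.0 CPM with DMSO. Of 77 mitochondrial ribosomal protein genes 31 rose and 31 fell (40.3% each, near the 35.6% and 37.8% of all genes tested), against 14 and 48 with library size scaling. Among genes of eIF2 signalling, the kinase gene EIF2AK1 rose (0.55), EIF2AK3 (-1.02) and EIF2AK4 (-0.38) fell, and EIF2AK2 (-0.02) did not pass the test.

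**Figure D3:**
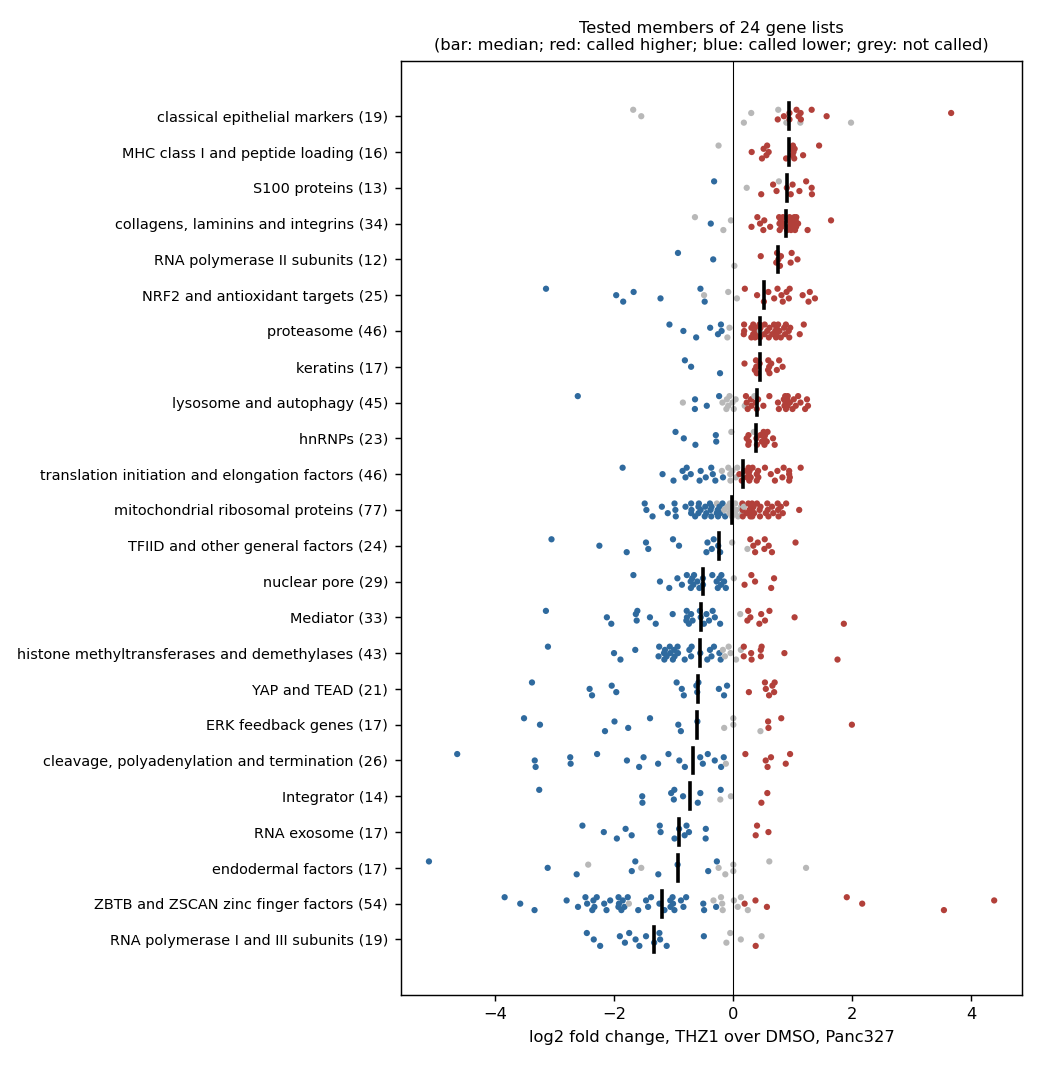
Each row is a gene list with its number of tested members in parentheses, each point a member at its log2 fold change of THZ1 over DMSO, red where called higher, blue where called lower and grey otherwise, and each black bar the median. Medians run from 0.94 for classical epithelial markers to -1.33 for RNA polymerase I and III subunits.

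Feedback genes of the ERK pathway, many of which are induced by ERK and dampen it, fell more often than they rose. Of 17 ERK feedback genes 4 rose and 9 fell (median -0.60). The ERK phosphatases DUSP6 (-3.25), DUSP5 (-2.16) and DUSP7 (-2.0) and the sprouty gene SPRY1 (-3.52) fell, whereas SPRED3 (1.99) and IER3 (0.81) rose. Of 14 tested genes of EGF receptors, their ligands and MET 4 rose (28.6%) and 6 fell (42.9%), near the 35.6% and 37.8% of all genes tested. The ligand AREG had 27.8, 30.6 and 31.4 CPM with THZ1, against 121, 113 and 118 CPM with DMSO, and the receptor EGFR had 459, 453 and 467 CPM with THZ1, against 792, 784 and 772 CPM with DMSO. ERBB4 rose (1.22), as did the ligand EGF (0.75).

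YAP and TEAD growth pathway genes included well expressed ones that fell several-fold. Of 21 genes 7 rose and 14 fell (median -0.59). CYR61, a secreted matrix protein, had 118, 123 and 141 CPM with THZ1, against 695, 657 and 680 CPM with DMSO (log2 fold change -2.41, SE 0.05, edgeR adjusted p = 3.45e-55). AMOTL2, a YAP-binding protein, had 26.4, 26.1 and 31.6 CPM with THZ1, against 143, 145 and 148 CPM with DMSO. ANKRD1 (-3.38) and CTGF (-2.04) fell as well, and AXL, CRIM1 (0.69 each) and the coactivator WWTR1 (0.66) rose. In TGF-beta and BMP signalling 9 of 23 tested genes rose (39.1%) and 10 fell (43.5%), near the 35.6% and 37.8% of all genes tested. The inhibitors of differentiation moved apart: ID2 had 40.4, 44.7 and 43.4 CPM with THZ1, against 10.4, 10.4 and 12.6 CPM with DMSO, and ID3 had 49.6, 51.5 and 50.7 CPM with THZ1, against 171, 174 and 162 CPM with DMSO. The signal transducer SMAD3 (0.94) and the inhibitory SMAD7 (1.35) rose, and SMAD6 (-1.23) fell.

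Around MYC, partners and antagonists moved in different directions. Of 12 tested network genes 6 rose and 5 fell, among them MYC's partner MAX (-0.64), the related MYCL (-1.73) and MGA (-1.51). The antagonist MXD1 had 38.5, 36.2 and 46.8 CPM with THZ1, against 8.98, 12.4 and 9.39 CPM with DMSO. MXI1 (0.94), MXD3 (0.90) and MXD4 (1.12) of the same family rose too. The network's median of 0.15 turned to -0.17 with library size scaling, and 5 genes rose and 6 fell. Inflammatory cytokines and chemokines had 2 genes higher and 8 lower of 17 tested, with IL1A at 0.509 ± 0.0896 CPM with THZ1 and 5.23 ± 1.09 CPM with DMSO (SD, n = 3), and IL32 higher (0.87). Of 30 interferon-stimulated genes 12 rose and 9 fell, with IRF7 at 1.33, IFI27 at 1.24, IFIT5 at -2.76 and IFIT2 at -1.80. With library size scaling 9 rose and 13 fell, and the median turned to -0.24 in place of 0.08.

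Genes of cell death and the cell cycle moved in both directions. Of 10 tested antiapoptotic genes 2 rose and 5 fell. MCL1, a short-lived inhibitor of apoptosis, had 179, 176 and 178 CPM with THZ1, against 285, 291 and 282 CPM with DMSO, BCL2L1 fell (-0.66), and BIRC5 rose (0.38), a call lost with library size scaling. Of 20 tested proapoptotic genes 6 rose and 12 fell, with the BH3-only genes PMAIP1 (0.95) and BCL2L11 (0.89) higher and BMF (-2.64) lower. Of 51 DNA replication genes 17 rose and 29 fell. TYMS, thymidylate synthase, had 212, 215 and 203 CPM with THZ1, against 103, 98.7 and 101 CPM with DMSO, and the S-phase regulator E2F1 averaged 11.9 ± 1.31 CPM with THZ1 and 48.4 ± 1.17 CPM with DMSO (SD, n = 3). Of 17 tested genes of cyclins, cyclin-dependent kinases and CDK inhibitors 4 rose and 9 fell. CCNB1 averaged 129 ± 1.85 CPM with THZ1 and 367 ± 8.25 CPM with DMSO. The kinase genes CDK4 and CDK6 stood at 0.69 and 0.48.

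Endodermal factors and driver genes of pancreatic cancer mostly fell or did not pass the test, while classical epithelial markers rose or did not pass it. Of 17 tested endodermal factors 0 rose and 9 fell, including GATA4 (-3.12), GATA6 (-2.63) and FOXA3, which had 1 count over the THZ1 libraries. GATA6 averaged 0.189 CPM with THZ1 and 1.28 CPM with DMSO, a low level in both groups. Of 19 tested classical epithelial markers 11 rose and 0 fell, with MUC16 at 1.14, MUC4 at 1.57 and S100P at 1.32. Without replicate 3 of the THZ1 group MUC4 no longer passed the test (log2 fold change 1.26, edgeR adjusted p = 0.0788). Of 22 driver genes 5 rose and 13 fell. RNF43, a negative regulator of Wnt receptors, fell by 3.16 and the repair gene PALB2 by 2.58, and GNAS rose by 1.21. CDKN2A had 0 counts over the THZ1 libraries and 1 over the DMSO libraries.

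Histone methyltransferase and demethylase genes fell more often than they rose, and other lists of chromatin regulators were more even. Of 43 histone methyltransferases and demethylases 9 rose and 28 fell (median -0.56). The H3K9 methyltransferases SUV39H1 (-3.11) and SETDB1 (-2.0) and the demethylase KDM4A (-1.90) fell, and DOT1L (0.46), KMT2C (0.86) and KDM7A (1.75) rose. Of 33 remodellers 10 rose (30.3%) and 15 fell (45.5%), near the 35.6% higher and 37.8% lower of all genes tested. CHD1 had 15.1, 15.3 and 18.2 CPM with THZ1, against 96.0, 106 and 104 CPM with DMSO, and CHD3 rose (1.02). Of 20 acetyltransferases and deacetylases 9 rose and 10 fell, with HDAC1 at 490 ± 11.4 CPM with THZ1 and 227 ± 2.88 CPM with DMSO (SD, n = 3), and KAT5 lower (-1.83). Among sirtuins, the deacylases to which the series title points, SIRT6 had 6.07, 5.79 and 6.51 CPM with THZ1, against 9.42, 8.58 and 10.6 CPM with DMSO (log2 fold change -0.63, SE 0.18). SIRT1 (-1.52) and SIRT7 (-0.35) fell too, and SIRT2 rose (0.80). Of the 6 tested sirtuins 3 rose and 3 fell, against 1 and 3 with library size scaling.

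Zinc finger and kelch adaptor genes mostly fell. Of 54 tested ZBTB and ZSCAN genes 7 rose and 38 fell (median -1.20). At least 2-fold lower were 31 of them, a call made for 19% of all genes tested. ZSCAN9 (-2.80) fell, and ZBTB34 rose with 68.0, 70.6 and 83.1 CPM with THZ1, against 19.2, 20.6 and 19.2 CPM with DMSO. Of 26 tested kelch-like adaptors of ubiquitin ligases 6 rose and 14 fell (median -0.72). KLHL11 had 64.0, 65.8 and 84.6 CPM with THZ1, against 24.4, 27.4 and 24.1 CPM with DMSO, and KLHL9 (-2.44) and KLHL22 (-2.13) fell.

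Metabolic lists were mixed. Of 30 cholesterol synthesis and SREBP genes 18 rose and 8 fell, with SCD at 0.89, SREBF2 at 0.72 and SQLE at -1.34. Of 24 hypoxia genes 12 rose and 10 fell, with NDRG1 at 1.34, CA9 at 1.24 and ADM at -2.84. Their medians of 0.28 and 0.29 turned to -0.042 and -0.031 with library size scaling, under which 8 and 11 genes rose and 12 fell in each list. Of 238 tested solute carriers 69 rose and 90 fell, with a median of -0.02. Of 21 tested clock genes 5 rose and 11 fell, with CRY2 at 1.10 and NR1D1 at -1.60. Of 11 metallothionein and zinc genes 4 rose and 4 fell, against 2 and 6 with library size scaling, where the median turned to -0.28 in place of 0.047: the exporter SLC30A1 rose (0.96), MT1E rose (0.40, not called with library size scaling), and MT1F fell (-1.39), although metallothionein genes resemble each other and may share reads.

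Noncoding transcripts had changes of both signs. Of 115 tested long intergenic transcripts 34 rose (29.6%) and 28 fell (24.3%), 21 and 16 of them at least 2-fold. With library size scaling 22 rose and 36 fell, and the median turned to -0.21 in place of 0.022. LINC00958 had 11.1, 10.3 and 10.1 CPM with THZ1, against 60.2, 56.0 and 60.3 CPM with DMSO. LINC00685 had 9.02, 11.8 and 14.0 CPM with THZ1, against 0.665, 1.29 and 1.20 CPM with DMSO. Of 217 tested antisense-named transcripts 47 rose and 45 fell, against 32 and 68 with library size scaling, and their reads cannot be told from those of the gene on the other strand, since the strand setting of the counting is not given in the sources used here. Of 21 tested snoRNA host transcripts 6 rose and 12 fell. SNHG3 fell to 18.4 ± 2.11 CPM with THZ1, against 79.2 ± 4.23 CPM with DMSO (SD, n = 3), and SNHG5 rose by 1.11 on the log2 scale. SNHG3 shares exons with RCC1 on the same strand.

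Some genes had counts in 1 treatment group and 0 in the other. Against a floor of 3 counts over the DMSO group, scaled by TMM, BTBD18 with 29, 46 and 40 counts in THZ1 libraries and 0 in each DMSO library was at least 67.3-fold higher. GPBAR1, a bile acid receptor, with 11, 19 and 13 counts in THZ1 libraries and 0 in DMSO libraries was at least 25.2-fold higher, and FAM166A, whose exons overlap TUBB4B on the other strand, at least 32.2-fold higher with 55 counts over the THZ1 libraries. RNA18S5, mature 18S ribosomal RNA with several genomic copies, had 76 counts over the THZ1 libraries and 0 over the DMSO libraries. In the other direction ZNF572 had 0 counts in THZ1 libraries and 23, 21 and 24 in DMSO libraries, at least 12.9-fold lower, and TIGD4 had 0 counts in THZ1 libraries and 6, 7 and 18 in DMSO libraries, at least 5.88-fold lower. These floors cover counting error only.

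Fold change was related to level and gene structure among the 12660 tested protein-coding genes matched to GENCODE 29. With genes put in 5 equal bins by mean level, the highest bin had a median of 0.42 and 67.8% were called higher. Bins 1 to 4 had medians of -0.08, -0.36, -0.26 and -0.01. The highest bin and bin 2 had medians of 0.09 and -0.68 with library size scaling. Genes with the shortest transcripts (bin 1 of 5, up to 2005 bases) had a median of 0.39, with 52.4% called higher, against -0.16 in bin 3 and -0.09 in the longest. These medians were 0.07, -0.47 and -0.41 with library size scaling. Within the highest bin of level the shortest and longest transcripts had medians of 0.81 and 0.21, and within bin 4 0.53 and -0.16, so that the order by length was seen at both levels. The 295 genes with 1 exon had a median of -0.74, with 20.3% called higher and 40.7% at least 2-fold lower, and those with 10 or more exons a median of 0.03. Without 17 histone genes the median for 1 exon was -0.87. Within the highest bin of level, however, the 20 genes with 1 exon had a median of 0.41. Over genes, Spearman's rho with fold change was 0.224 for level, -0.158 for transcript length, 0.10 for exon number and 0.007 for gene span. Genes are not independent replicates, level and fold change come from the same counts, and these values are descriptions. Bins of transcript length were added after values were seen.

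**Figure D4:**
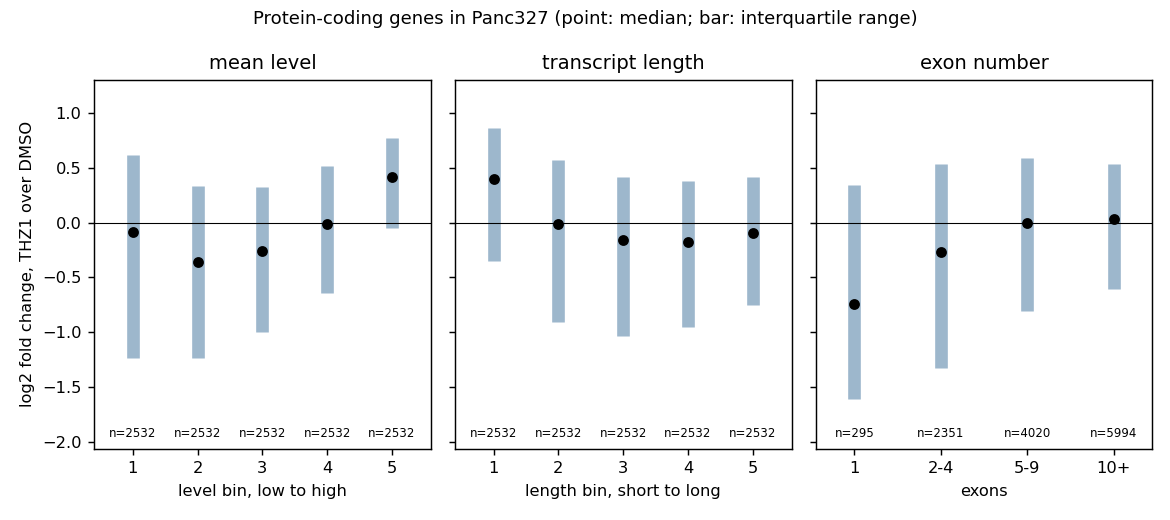
Median log2 fold change of THZ1 over DMSO (points) and the interquartile range (bars) for protein-coding genes in Panc327, by bin of mean level, bin of transcript length and number of exons, with the number of genes under each bar. The medians are highest in the highest level bin (0.42) and the shortest length bin (0.39), and lowest for genes with 1 exon (-0.74).

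The Panc327 response was set against the mean response of BxPC3 and SUIT2 by a test of the difference itself in the same fit. That mean pools unlike lines: the highest level bin had a median log2 fold change of 0.42 in Panc327, 0.45 in BxPC3 and 0.046 in SUIT2, and the shortest transcripts had 0.39, 0.36 and 0.026 in the same lines. A difference from the mean can therefore come mainly from SUIT2, and the change in each line is given below. That difference was called for 7207 genes (51.4%), 3314 higher in Panc327 (23.7%) and 3893 lower (27.8%). Scaled by library size alone, 33.9% of these calls were higher in place of 46.0%. Among the 8076 genes with 10 CPM or more in a group of every line, a restriction added after values were seen, 2564 differences were higher and 3049 lower. ADM, the vasodilator adrenomedullin, had a log2 fold change of -2.84 in Panc327, 0.67 in BxPC3 and 0.27 in SUIT2, and the difference was -3.31 (SE 0.12, edgeR adjusted p = 3.88e-41). It averaged 20.9 ± 2.25 CPM with THZ1 and 149 ± 2.32 CPM with DMSO in Panc327, against 32.1 ± 3.71 and 20.1 ± 2.38 CPM in BxPC3 (SD, n = 3). DUSP6 fell by 3.25 in Panc327, with changes of -0.35 in BxPC3 and 0.12 in SUIT2. TNFRSF1A stood at -3.51 in Panc327, -1.84 in BxPC3 and 0.08 in SUIT2, the ubiquitin ligase TRIM32 at -3.24, -1.26 and 0.00, and RNF43 at -3.16, -1.02 and -0.04 in the same lines. RNF43 shares exons with SUPT4H1 on the same strand.

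Among well expressed genes with a higher response in Panc327 was an mRNA export factor. This gene, THOC6, had 83.3, 85.7 and 79.1 CPM with THZ1, against 20.2, 20.3 and 20.8 CPM with DMSO in Panc327. Its log2 fold change was 2.02 there, 0.45 in BxPC3 and -0.07 in SUIT2, a difference of 1.83 (SE 0.10, edgeR adjusted p = 7.29e-30), and its exons overlap HCFC1R1 and BICDL2 on the other strand. SAMD4A, an RNA-binding translational repressor, had 128, 127 and 129 CPM with THZ1, against 40.4, 41.6 and 41.4 CPM with DMSO, and its log2 fold change of 1.64 compared with 0.14 in BxPC3 and -0.26 in SUIT2. CPNE7, a calcium-dependent phospholipid-binding protein, changed by 2.0 in Panc327, 0.80 in BxPC3 and -0.20 in SUIT2. RNF207 changed by 1.76, 0.32 and -0.29 in these lines, and its exons overlap ICMT on the other strand.

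For 7 other genes with large fitted differences, at least 1 of the other lines had counts near 0. FOXE1, a forkhead transcription factor, averaged 14.7 CPM with THZ1 and 79.5 CPM with DMSO in Panc327, but had 2 counts or fewer in any group of the other lines, and neither pairwise difference passed the test (edgeR adjusted p = 0.066 against BxPC3 and 0.0893 against SUIT2). SMAD4 averaged 20.2 CPM with THZ1 and 41.5 CPM with DMSO in Panc327 and had at most 2 counts in a group elsewhere, so a fold change in those lines could not be measured at this depth. KLHL9 had 2 counts over the THZ1 libraries and 0 over the DMSO libraries of BxPC3, while its change in SUIT2 was -0.04 at 54.8 and 56.4 CPM, and the pairwise difference from SUIT2 was -2.40 (edgeR adjusted p = 7.59e-24). CDH13, COL4A1, SNCG and LRRC4 likewise had 10 counts or fewer in at least 1 of the groups compared. Without replicate 3 of the SUIT2 THZ1 group the differences for FOXE1 and LRRC4 no longer passed the test (-3.06 and -2.72), and without replicate 3 of the BxPC3 THZ1 group that for SMAD4 (-2.33). For these 7 genes the fitted difference rests on counts near 0 in another line.

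**Figure D5:**
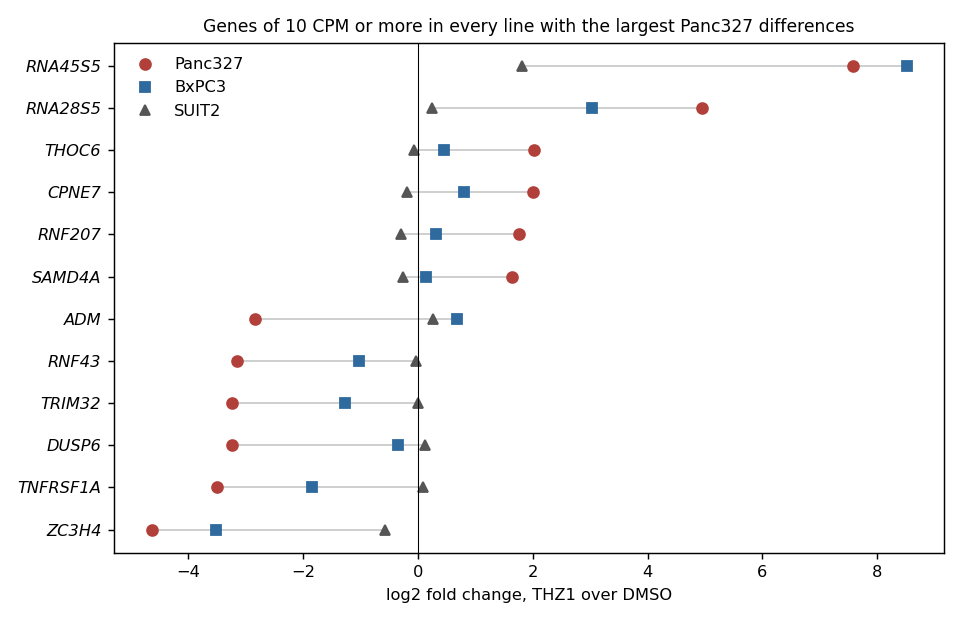
Log2 fold change of THZ1 over DMSO in Panc327 (circles), BxPC3 (squares) and SUIT2 (triangles) for the 12 genes with the largest differences of the Panc327 response, among genes of 10 CPM or more in a group of every line. ADM, DUSP6, RNF43, TRIM32 and TNFRSF1A are lowest in Panc327 and close to 0 in SUIT2, and RNA45S5 is higher in BxPC3 (8.51) than in Panc327 (7.57).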

How the data were processed

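Poly(A) RNA of 18 libraries, 3 in each of 6 groups, was counted per gene symbol, and the 6 Panc327 libraries are described. The deposited values are raw read counts per gene; per the submitters' processing notes, bcl2fastq 1.8.4, TopHat2 2.1.0, HTSeq 0.6.1 and hg38 were used, and no source used here gives the annotation, the strand setting or the counting mode. The 5 summary rows of each file, 60.5% to 64.6% of records in THZ1 and 25.2% to 25.9% in DMSO libraries, entered neither the library totals nor any test.

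Counts were fitted with edgeR 4.0.16 in R 4.3.3 (TMM scaling, filterByExpr with a minimum count of 10, 6 group means, robust quasi-likelihood test, 12 residual degrees of freedom) over all 18 libraries. The difference from the other lines was a contrast in the same fit. Alternatives used other scalings, no filter, DESeq2 1.42.0, voom in limma 3.58.1, a replicate term, the 6 Panc327 libraries alone, and each library left out. The scripts were tested on simulated data. Symbols were matched by name to GENCODE 29 on GRCh38 and promoters to RefSeq on GRCh38.p14; figures used matplotlib 3.10.9.

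Genes were named by rule: the 15 largest called rises and falls with 10 CPM or more in a group and libraries that did not overlap; up to 5 per direction with 0 counts in a group and 30 or more in the other; the 6 largest differences per direction; up to 4 called members per direction of each list, and any member of lists of 13 or fewer; the 5 most abundant called genes per direction; and 17 fixed genes. HSPA1A, HSPA1B, JUNB and the genes compared at 10 CPM or more in every line were chosen after their values were seen. The members and lists were chosen with earlier results of these data known. Results for several genes under this rule are not reported here. Floors of 3 counts over a group cover counting error only.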

Additional observations from a re-analysis of the deposited data

Results flagged for a closer look

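Records aligned to several places, which enter no comparison, averaged 52.8% of the Panc327 THZ1 files and 13.6% of the DMSO files.

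The change with THZ1 in Panc327 differed from the mean change in BxPC3 and SUIT2 by a test of the difference (edgeR, adjusted over all genes tested) for 21 named genes. With 10 CPM or more in a group of every line, the differences on the log2 scale were 1.83 for THOC6, 1.74 for RNF207, 1.70 for SAMD4A, 1.70 for CPNE7, 2.40 for RNA45S5 and 3.31 for RNA28S5, and -3.31 for ADM, -3.14 for DUSP6, -2.63 for RNF43, -2.63 for TNFRSF1A, -2.61 for TRIM32 and -2.59 for ZC3H4. For RNA45S5 the sign of the difference depended on the line compared, with -0.94 against BxPC3 alone. LINC00685 (2.60) and P2RX5-TAX1BP3 (3.32) also differed. For 7 genes the difference rests on counts near 0 in another line: CDH13 (3.64), COL4A1 (3.11), SNCG (2.84), FOXE1 (-3.95), KLHL9 (-3.92), LRRC4 (-3.61) and SMAD4 (-3.41). No test for a single outlying library was run on these groups of 3. Replicate 3 of the Panc327 THZ1 group differed from replicates 1 and 2 at chi-square per degree of freedom of 2.15 and 1.85, against 1.25 between those 2 replicates, and 54.9% of its records aligned to several places, against 51.8% and 51.7%.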

How the results depend on the processing

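Of 278 results for single named genes, 261 kept their direction and their side of the threshold under every alternative run, and none changed direction. Scaling by library size alone moved the most: 3170 genes were called higher and 384 at least 2-fold higher, 31.0% of calls were higher, 33.9% of the calls of the difference between lines were higher, and 10 of 58 list medians lay above 0 in place of 20. Under it the medians of TFIIH core (-0.12), translation factors (-0.16), cytosolic aminoacyl-tRNA synthetases (-0.15), the MYC network (-0.17), cholesterol genes (-0.042), hypoxia genes (-0.031), the super elongation complex (-0.26), interferon-stimulated genes (-0.24), metallothioneins (-0.28) and long intergenic transcripts (-0.21) changed sign, and ACTG1, BIRC5, MNAT1, MT1E, POLR1D and VWF lost their calls while CCNK and EIF2AK2 gained one as lower. The median of all genes was 0.08 with RLE factors and with DESeq2, under which 28 list medians lay above 0. CDK9 gained a call with RLE factors, and COL4A1, KRT5, KRT19 and RNA18S5 lost theirs in DESeq2. Calls numbered 9971 with DESeq2 and 10566 with no filter. Leaving out each Panc327 library gave 9856 to 10120 calls, and leaving out each of the 18 gave 6784 to 7221 calls of the difference between lines. With a replicate block there were 10221 calls and 7157 for the difference. The replicate numbers share no stated batch, and deviations of same-numbered Panc327 libraries correlated at 0.078, -0.005 and 0.034 over 9010 genes, so the numbers were not taken to pair the samples. Depth of 5626146 to 8631273 gene counts limits genes of a few counts, as does the lower depth of the THZ1 libraries. Except where stated, the cause of a change between settings was not tested.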
